A study of Mus musculus with 4 samples.

Results

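Ubd and 9 genes of MHC class I antigen presentation were followed in the RNA-seq of mouse embryonic stem (ES) cells, 10 genes of the 22718 listed. They are Ubd, the heavy chain genes H2-K1 and H2-D1, the light chain gene B2m, the peptide loading genes Tap1, Tap2 and Tapbp, and the immunoproteasome genes Psmb8, Psmb9 and Psmb10, each found by its symbol. The group was chosen by the difference between the 2 libraries, so the values below describe that difference and no test is given. ES cells are pluripotent cells grown from the inner cells of the blastocyst. The RNA came from a wild type line and from the KO2 line, labelled Prep1-/-, both labelled C57BL/6 and grown on gelatin in serum with leukemia inhibitory factor (LIF). Prep1, encoded by Pknox1, is a homeodomain transcription factor that binds DNA together with Pbx proteins. Each genotype had 1 line and 1 library of polyA RNA, so no difference has a replicate check, and line, clone and genotype cannot be told apart. A Prep1 ChIP-seq peak list from wild type ES cells was also used, and its protocol names the R1 line, although its strain label is C57BL/6 too.

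MHC class I molecules show pieces of a cell's own proteins to T cells. The proteasome cuts proteins into peptides, the TAP transporter carries the peptides into the endoplasmic reticulum, and there they are loaded onto a heavy chain paired with beta-2 microglobulin. Interferon gamma and tumour necrosis factor raise many of these genes and exchange 3 catalytic subunits of the proteasome for the immunoproteasome forms. Ubd, also called FAT10, is a ubiquitin-like protein encoded within the MHC, induced by the same cytokines, and it marks proteins for the proteasome.

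The 2 libraries held 29596294 (wild type) and 25717811 (Prep1-/-) reads over all genes. These sums are several times larger than the number of reads per sample in the study's methods, so a deposited count may not stand for 1 sequenced fragment, and the counting intervals and the limit for 0 reads may be too narrow. RPKM, a read count scaled to gene length and library size, was deposited with 1 read added to every gene, so that a gene with 0 reads still has a value. For the KO/WT ratio, RPKM in the library labelled Prep1-/- was divided by RPKM in wild type, and its 95% interval is an exact binomial (Clopper-Pearson) interval of the 2 read counts. The intervals and limits cover counting error only, and reads are not independent molecules. Pknox1 itself kept reads in the library labelled Prep1-/-, with 332 against 505 in wild type and a KO/WT ratio of 0.736 (0.638 to 0.846). At the protein level, the paper reports by immunoblot that Prep1 was lost in its null ES cell lines, KO2 among them. All 10 ES cell marker genes listed had RPKM above 1 in either library, none of them was below a ratio of 0.7, and 1 was above 1.5. Of 10 fibroblast markers, which feeder cells would carry, 5 passed the same filter and none was below 0.7 or above 1.5. Of 7 leukocyte markers found, 2 passed and 1, Cd3e, was above 1.5, passing through the library labelled Prep1-/- only. The summed RPKM of these 7 was 79.2 in wild type and 108.8 in the library labelled Prep1-/-, nearly all of it from Laptm5 (2039 and 2498 reads). Cd3e had 28 and 40 reads and Itgam 13 and 28, while the defining markers Ptprc, Lyz2, Cd52 and Tyrobp had 6, 1, 0 and 0 reads in wild type and 2, 0, 2 and 0 in the other library. The part of such cells in the results was not tested. Of 6 genes with at least 50 reads in the library labelled Prep1-/- and 0 in wild type, 4 were on chromosome Y, so the lines also differed in chromosome Y transcripts.

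A ratio below 0.7 was called lower and one above 1.5 higher, for genes with RPKM above 1 in either library. Of 14254 such genes, 13.3% were lower and 6.91% were higher. All 10 members passed the RPKM filter, Ubd and Tap2 through the wild type library only, and 5 of them were called lower (Ubd, H2-K1, Tap1, Tap2 and Psmb8), none was called higher and 5 were neither. The ratio was under 1 for 9 of the 10 members. The counting interval lay below 1 for 8 members, above 1 for Tapbp, and on both sides of 1 for Psmb9. The interval lay wholly under 0.7 for Ubd and Psmb8 only. The median KO/WT ratio of the 10 members was 0.727, against 0.954 over all genes tested, and it was 0.760 over the 9 members other than Ubd. H2-K1 at 0.694 was the member just inside the lower threshold, and B2m at 0.760 the nearest outside it.

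**Figure D1:**
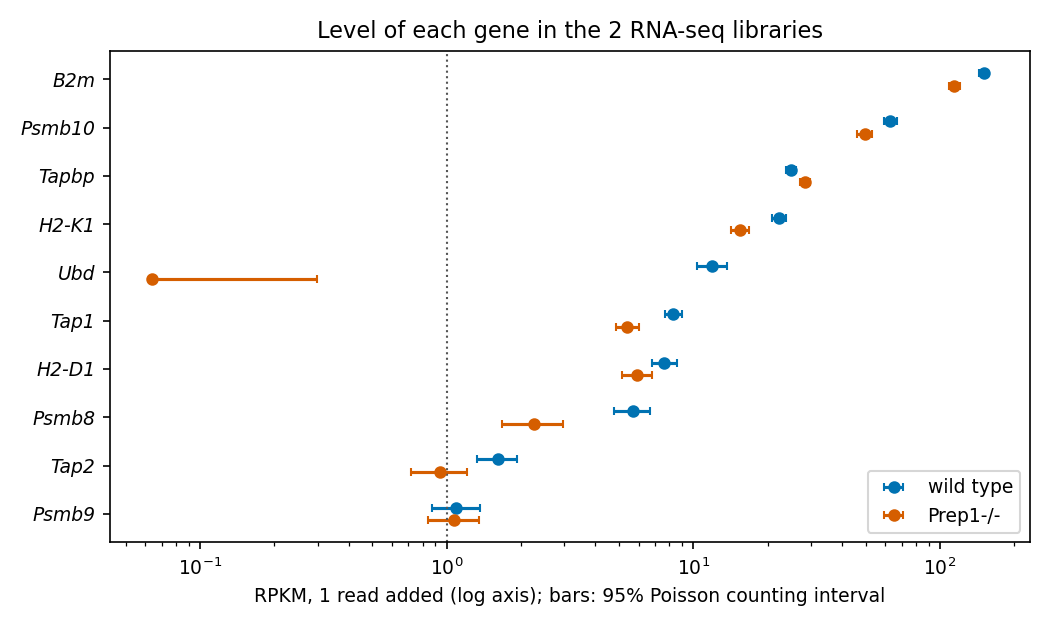
RPKM (log axis, 1 read added by the authors) of the 10 genes in the wild type library (blue) and the library labelled Prep1-/- (orange), with 95% Poisson counting intervals, and the dotted line marks an RPKM of 1. B2m is highest in both libraries, and Ubd lies at 11.9 in wild type and, with 0 reads, at the value of the single added read in the other library.

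Ubd had 209 reads in wild type (RPKM 11.9) and 0 reads in the library labelled Prep1-/-. Of the 13060 genes with at least 50 wild type reads, Ubd alone had 0 reads in the other library. A count of 0 allows up to 3 reads, or an RPKM of up to 0.191, so with the wild type count taken as exact Ubd was at least 62.3-fold lower in the library labelled Prep1-/-. The 95% binomial interval, which also covers the wild type count, is wider and allows a ratio of up to 0.0199. Fewer cells with Ubd RNA and less Ubd RNA per cell cannot be told apart in such bulk RNA. The deposited RPKM of 0.0636 there stands for the added read, and the ratio of 0.00532 that it gives is set by that read. Ubd shared no 50-base stretch with the coding transcript of another gene, and no exon of another gene overlaps it. The gene lies at chr17:37330837-37333040 on the plus strand (mm9), at the distal end of the MHC stretch studied here. The 250 bases before its start come from the RefSeq GRCm38.p6 promoter table and were placed by exact match on mm9 at chr17:37330587-37330836. They are shown because Ubd has the largest difference of the members, which the other genes tested within 500 kb did not share. Capitals mark matches on either strand to a kB-like motif (GGGANNNCC, a pattern that NF-kB proteins bind) and to a CCAAT box.
Ubd upstream: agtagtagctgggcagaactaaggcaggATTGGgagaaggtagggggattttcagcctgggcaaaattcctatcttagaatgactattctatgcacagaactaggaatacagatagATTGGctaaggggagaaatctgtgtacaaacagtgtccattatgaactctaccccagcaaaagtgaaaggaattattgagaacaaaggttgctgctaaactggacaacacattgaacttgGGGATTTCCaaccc

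The partners of Ubd were present in both libraries at close levels. Ube1l2, now named Uba6, encodes the enzyme that activates Ubd, and it had 2160 reads in wild type and 1864 in the library labelled Prep1-/- (ratio 0.965, 0.906 to 1.03). Ube2z, the conjugating enzyme that receives Ubd from it, had 6449 and 6076 reads (ratio 1.05). Nub1, which binds Ubd and speeds its breakdown, had 5765 and 4765 reads (ratio 0.924). In the list of Ubd conjugation and other ubiquitin-like genes, 17 of 18 were found and 15 passed the RPKM filter. Ubd and Ufm1 were lower, Ufm1 on 35 and 20 reads only, and the other 13 were neither lower nor higher. The median ratio of the 14 genes other than Ubd was 1.01. Isg15, the other interferon-induced ubiquitin-like gene, did not pass the RPKM filter, with 12 and 3 reads.

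The other genes tested within 500 kb of Ubd on chromosome 17 did not share its loss of all reads. Of 19 genes starting within 500 kb of it, 12 passed the RPKM filter, and 2 were lower (Ubd and H2-M3) and 3 higher (Rnf39, 2410137M14Rik and D130003B22Rik). H2-M3, a class I molecule that presents formylated peptides, had 47 reads in wild type and 19 in the library labelled Prep1-/- (ratio 0.466, 0.251 to 0.785). H2-M3 passed the RPKM filter through the wild type library only. It starts 76.3 kb after Ubd and was the only other gene tested on that side. No gene between Gabbr1 (chr17:37182911-37212012) and H2-M3 passed the filter except Ubd, so the closest surroundings of Ubd were not measured. Gabbr1, a GABA B receptor subunit and the nearest of the 12 genes on the other side, had 2059 and 1700 reads (ratio 0.923). Zfp57, which keeps imprinting marks in ES cells, had 16105 and 15852 reads (ratio 1.10). The lowest ratio near Ubd after its own was thus the 0.466 of H2-M3, and the nearest tested gene before Ubd was close to 1.

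The classical heavy chains H2-K1 and H2-D1 hold the peptide and are what T cells see. H2-K1 had 903 reads in wild type (RPKM 22.3) and 560 in the library labelled Prep1-/- (RPKM 15.5), a ratio of 0.694 (0.623 to 0.771). H2-D1 had 290 reads (RPKM 7.63) and 201 reads (RPKM 5.92), a ratio of 0.776 (0.644 to 0.931). Both were below 1 in the same direction and by overlapping intervals, although only H2-K1 passed the threshold. That call was lost when the ratio was taken from summed read counts (0.714), scaled to the median of expressed genes (0.726) or scaled by TMM (0.728). Part of these reads could not be placed with certainty, because 8.87% of the 50-base windows of the H2-K1 coding transcript and 14.3% of those of H2-D1 also occur in transcripts of other genes, 12 of them H2 genes in each case. The H2-D1 row carries a description of a Q region locus, but its gene identifier belongs to H2-D1 at chr17:35399675-35404444. H2-K1 lies at chr17:34132962-34137278 on the minus strand.

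The promoters of both heavy chains hold the same kB-like match, which is shown with 10 bases on each side because it is an element these members share with Ubd, beside CCAAT boxes. The H2-K1 window (chr17:34137384-34137412, minus strand) and the H2-D1 window (chr17:35399859-35399887, plus strand, inside an annotated H2-D1 exon) were identical at 28 of 29 bases. In B2m the only interferon response element match of the 9 members (GAAANNGAA) lies at chr2:121973274-121973302, and in Psmb8 the only match to a gamma activated site (TTCNNNGAA) lies at chr17:34335033-34335061, inside an annotated Psmb8 exon. Capitals mark the match in each window.
H2-K1 kB-like: cccagggctgGGGATTCCCcatctccaca
H2-D1 kB-like: cccagggctgGGGATTCCCcatctcctca
B2m interferon response element: ataagaacatGAAACTGAAaatgggaaag
Psmb8 gamma activated site: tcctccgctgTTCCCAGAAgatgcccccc

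RefSeq promoter windows of 300 bases (250 before the start and 50 after it) were matched for 9 of the 10 members, and Tap2 had no entry in the table. The kB-like motif, searched on both strands, was in 3 of the 9 windows (Ubd, H2-K1 and H2-D1), against 18.2% of 27025 promoters. The interferon response element was in 1 of the 9 windows, against 8.57% of all promoters, and the gamma activated site in 1 against 8.47%. The letters of a CCAAT box (CCAAT) were in 7 of the 9, against 37.9% of all promoters, and those of a TATA box (TATAAA) in 4, against 14.2%. Every motif was searched on both strands and over the whole window. Counted from the start, the TATAAA matches began at -26 in H2-D1, 35 in H2-K1, -237 in Psmb8 and, on the opposite strand, -152 in B2m. These letters are a description of the windows and not evidence of binding. Of the 3 genes with a kB-like match, Ubd had the lowest KO/WT ratio of all members, and H2-K1 and H2-D1 had 0.694 and 0.776. Among the genes without a match, Psmb8 at 0.397 and Tap1 at 0.650 lay below H2-K1, and B2m at 0.760 lay between H2-K1 and H2-D1. Psmb10 at 0.788, Psmb9 at 0.9801 and Tapbp at 1.14, also without a match, lay above H2-D1. The members were chosen by their difference between the libraries, and a link between the motif and the ratios was not tested.

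B2m, the light chain of every class I molecule, was the most abundant member per length in both libraries. It had 2299 reads in wild type (RPKM 150.3) and 1563 in the library labelled Prep1-/- (RPKM 114.3), a ratio of 0.760 (0.712 to 0.811). The difference was larger than counting error but did not reach the threshold. B2m lies on chromosome 2 at chr2:121973422-121978819, where the median ratio over expressed genes was 0.939. No 50-base window of its transcript occurs in the coding transcript of another gene.

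**Figure D2:**
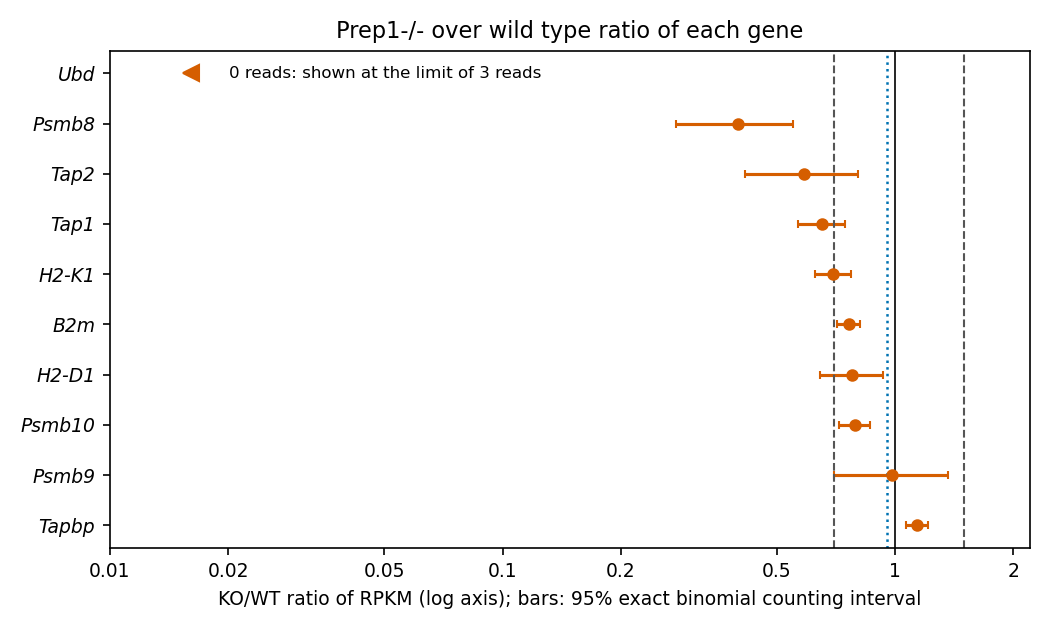
KO/WT ratio of RPKM (log axis) of the 10 genes with 95% exact binomial counting intervals, dashed lines at the thresholds of 0.7 and 1.5, a solid line at 1 and a blue dotted line at the median of all genes tested (0.954). Ubd is drawn at the ratio of 0.0160 that a limit of 3 reads allows, Psmb8 follows at 0.397, and Tapbp at 1.14 is the only gene above 1.

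The TAP transporter is built from Tap1 and Tap2, and tapasin, encoded by Tapbp, bridges it to the empty class I molecule. Tap1 had 591 reads in wild type (RPKM 8.31) and 343 in the library labelled Prep1-/- (RPKM 5.40), a ratio of 0.650 (0.566 to 0.743). Tap2 had 110 reads (RPKM 1.61) and 57 reads (RPKM 0.939), a ratio of 0.584 (0.413 to 0.805). Both subunits of the transporter were called lower, and their intervals overlapped. Tapbp had 1842 reads (RPKM 24.9) and 1870 reads (RPKM 28.3), a ratio of 1.14 (1.06 to 1.21). Tapasin thus stood on the other side of 1 from the transporter that it binds, and its interval did not overlap those of Tap1 and Tap2. Tap2 shares 18.5% of its exonic bases with Gm15821 and Gm20496 on the other strand, and Psmb8 shares 6.83% with Gm20496. The study speaks of sense-strand transcripts, but the kit named is not described as one that marks strand, and how reads over such bases were assigned was not tested.

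The other genes of peptide loading varied as well. Of the 8 listed beside the members B2m, Tap1, Tap2 and Tapbp, 7 passed the RPKM filter, and 2 were lower (Tapbpl and Calr), none was higher and 5 were neither, with a median ratio of 0.823. Tapbpl, a tapasin relative that edits peptides, had 123 and 54 reads (ratio 0.496, 0.350 to 0.681). Calr, the chaperone calreticulin, had 22445 and 13862 reads (ratio 0.691, 0.676 to 0.705). Canx, the related chaperone calnexin, had 7553 and 7865 reads (ratio 1.16, 1.13 to 1.202), so the 2 chaperones lay on opposite sides of 1. Erap1, which trims peptides in the endoplasmic reticulum, had a ratio of 0.823 (0.670 to 1.01). Nlrc5, the transactivator of class I genes, did not pass the RPKM filter, with 29 reads in wild type and 9 in the library labelled Prep1-/-. Calr and Nlrc5 lie on chromosome 8, where the median ratio over 702 expressed genes was 0.779.

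The 3 immunoproteasome subunits had unequal ratios. Psmb8 (beta-5i) had 137 reads in wild type (RPKM 5.67) and 48 in the library labelled Prep1-/- (RPKM 2.25), a ratio of 0.397 (0.276 to 0.548). Psmb9 (beta-1i) had 80 reads (RPKM 1.09) and 70 reads (RPKM 1.07), a ratio of 0.9801 (0.6996 to 1.37). Psmb10 (beta-2i) had 1124 reads (RPKM 62.97) and 792 reads (RPKM 49.6), a ratio of 0.788 (0.718 to 0.864). The interval of Psmb8 did not overlap that of either other subunit. Psmb10 lies on chromosome 8 (chr8:108459628-108462292), and divided by the median of that chromosome its ratio was 1.01, close to the middle of the expressed genes there. Psmb8, Psmb9, Tap1 and Tap2 lie side by side between chr17:34318932 and chr17:34353266, and Psmb9 and Tap1 overlap head to head in 200 exonic bases on opposite strands. Within this cluster the ratio was 0.9801 for Psmb9, 0.650 for Tap1, 0.397 for Psmb8 and 0.584 for Tap2, in the order of their positions.

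The PA28 activator and the constitutive proteasome gave a background for these subunits. Beside the members, the list of the immunoproteasome and PA28 held Psme1, Psme2 and Pomp, and all 3 were neither, with a median ratio of 0.965. Psme1 and Psme2, the PA28 activator subunits, had ratios of 0.995 (0.915 to 1.08) and 0.965 (0.624 to 1.48). Of the 14 constitutive 20S genes, Psma5 was lower on 59 and 27 reads, the other 13 were neither, and the median ratio was 0.907. Psmb5, the subunit that Psmb8 replaces, had 167 and 118 reads (ratio 0.792, 0.619 to 1.01). Its interval did not overlap that of Psmb8.

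In wild type the members ranked by RPKM as B2m, Psmb10, Tapbp, H2-K1, Ubd, Tap1, H2-D1, Psmb8, Tap2 and Psmb9. The counting intervals overlapped between Tapbp and H2-K1, between Tap1 and H2-D1 and between Tap2 and Psmb9, so these neighbours were not separated. In the library labelled Prep1-/- the first 4 places were the same, H2-D1 and Tap1 followed with overlapping intervals, then Psmb8, then Psmb9 and Tap2 with overlapping intervals, and Ubd was last. Ubd was the member that left its place, from the fifth to the tenth. The length behind the deposited RPKM of Psmb9 comes to 2501 bases, while its longest coding transcript has 1340 bases, so its level per length depends on the gene model used.

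Other class I heavy chains differed in both directions. Beside H2-K1 and H2-D1, 20 listed genes were found and 9 passed the RPKM filter, and 3 were lower, 4 higher and 2 neither. All 3 lower genes passed the filter through the wild type library only, and Cd1d1 and H2-Q7 through the library labelled Prep1-/- only. The median ratio of 1.30 was that of H2-Q7, on 11 and 13 reads (0.546 to 3.26). The lower ones were H2-M3, H2-Q10 (55 and 28 reads) and the row named H2-Q1, whose identifier is that of H2-Q6 (61 and 33 reads). The higher ones were H2-Bl, the row D130003B22Rik (H2-M5 in the annotation), and the class I-like genes Fcgrt and Cd1d1. H2-Bl, a class I gene described in blastocysts, had 39 reads in wild type and 104 in the library labelled Prep1-/- (ratio 2.94, 2.05 to 4.43). Lower counts were thus not shared by all heavy chains, and near-identical copies could exchange reads among them.

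MHC class II genes, which present peptides from outside the cell, were covered by few reads. Of 11 listed, 9 were found and 4 passed the RPKM filter. H2-DMa was just inside the lower threshold on 79 and 49 reads (ratio 0.699), and its interval spanned 1 (0.475 to 1.003). Cd74, the class II chaperone, which lies outside chromosome 17, was lower on 194 and 116 reads (ratio 0.671, 0.527 to 0.846). H2-Ab1 was neither, and H2-Eb1 was higher, with 39 reads in wild type and 137 in the library labelled Prep1-/- (ratio 3.86, 2.73 to 5.76).

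Of the members, 8 lie in 3.28 Mb of chromosome 17, from Tapbp to Ubd, which was taken as the MHC stretch. It held 164 genes, and of the 114 that passed the RPKM filter 19 were lower (16.7%) and 9 were higher (7.89%). Without the members, 14 of 106 were lower (13.2%), close to the 13.3% of all genes tested and to the 13.4% of the rest of chromosome 17. The median ratio of the stretch without the members was 0.931, and that of the rest of the chromosome was 0.932. Apart from the members, the stretch thus resembled the remainder of the chromosome in both measures.

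A short run of genes about 1 Mb before Ubd came nearest to it in loss of reads, and these genes were singled out after their values were seen. Of 13417 genes with at least 40 wild type reads, 5 had at most 2 reads in the library labelled Prep1-/-: Ubd, Gm10499, EG667977, Snx25 and B230314M03Rik. The first 3 lie on chromosome 17 within 1.05 Mb. Gm10499, a processed transcript listed under a clone name in the files, had 212 and 2 reads, and EG667977, a class I-like gene named Gm8909 there, had 42 and 0 reads. Together with 2410017I17Rik (17 and 0 reads) and H2-T3 (23 and 2 reads) they form a run of 4 neighbouring genes over 48.5 kb (chr17:36278703-36327232), which held 294 reads in wild type and 4 in the library labelled Prep1-/-. Nearly all windows of the EG667977 transcript (99.9%) occur in other class I transcripts, so its reads cannot be placed with certainty, whereas only 0.751% of the H2-T3 windows do. Gm10499, which holds 212 of the 294 wild type reads of the run, and 2410017I17Rik were not searched for shared windows. Between the run and Ubd, 12 of 20 genes passed the RPKM filter, none was lower, 3 were higher, and the ratios ran from 0.745 to 2.501. The low values of the run and of Ubd were thus separated by 1004 kb in which no gene tested was lower. No gene tested lies between chr17:36409192 and chr17:36974079, so a large part of this distance was not measured. In the other direction, 7 genes had at least 40 reads in the library labelled Prep1-/- and at most 2 in wild type, and 0 of them lay on chromosome 17.

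**Figure D3:**
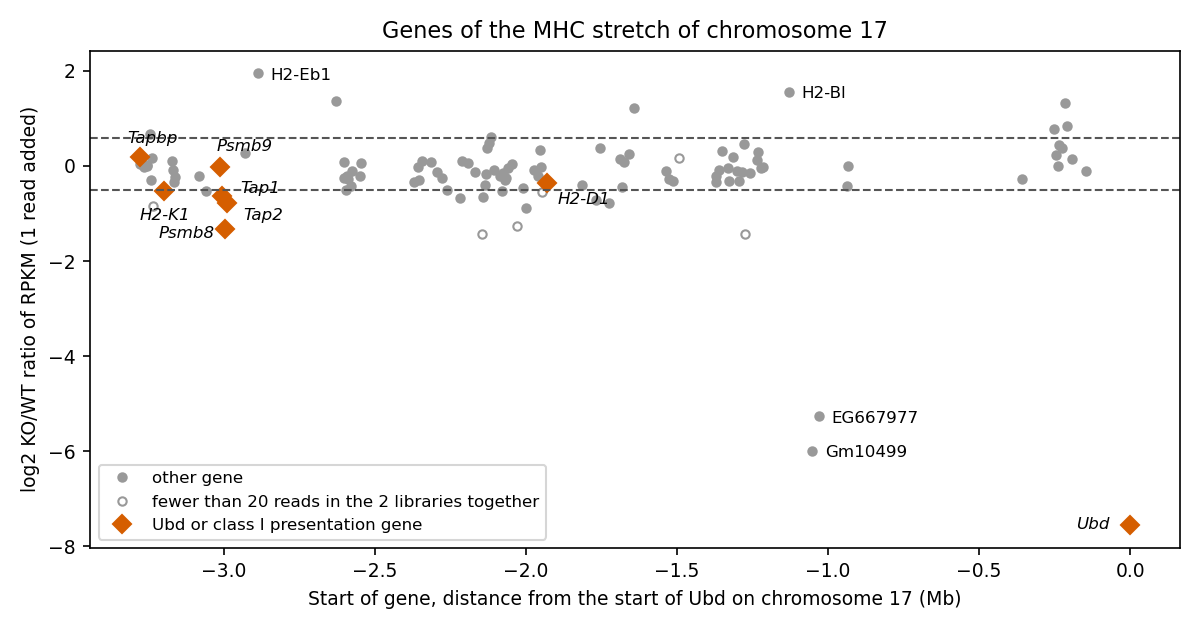
log2 KO/WT ratio of RPKM (1 read added) of the 114 genes of the MHC stretch with RPKM above 1 in either library, against the distance of the gene start from the Ubd start (Mb), with dashed lines at the thresholds of 0.7 and 1.5. Ubd at the right edge and Gm10499 and EG667977 about 1 Mb before it lie far below all other points, and the values of Ubd and EG667977 are set by the added read.

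Regulators of these genes were measured in the same libraries. Of 16 interferon receptors, Stats and Irfs, 14 passed the RPKM filter, Ifngr1 and Irf2 were lower and the other 12 were neither, with a median ratio of 0.831. Irf2 (ratio 0.649, 0.513 to 0.812) lies on chromosome 8, where the median ratio over expressed genes was 0.779. Ifngr1, the ligand-binding chain of the interferon gamma receptor, had 274 and 161 reads (ratio 0.659, 0.537 to 0.801). Irf1, the factor that carries interferon gamma signals to class I genes, had 1451 and 1069 reads (ratio 0.824, 0.760 to 0.892). Of 13 NF-kB factors and targets, 12 passed the filter, none was lower, Rel was higher (33 and 71 reads), and the median ratio was 0.857. Rel passed through the library labelled Prep1-/- only. Rela, the main activating subunit, had a ratio of 0.834 (0.787 to 0.884).

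The interferon-stimulated genes held more that were higher than lower. Of 23 listed, 12 passed the filter, and 1 was lower (Igtp), 5 were higher and 6 were neither, with a median ratio of 1.31. Igtp passed through the wild type library only, and Oas1a and Oas2 through the library labelled Prep1-/- only. The higher genes that passed in both libraries were Ifitm1, Ifitm2 and Ifitm3. Ifitm1, Ifitm2 and Ifitm3, membrane proteins that restrict viruses and are also expressed in early germ cells, had ratios of 2.03, 1.55 and 1.52. Ifitm3 had 6821 and 9268 reads, the most of the list. Oas2 had 132 and 215 reads (ratio 1.82, 1.46 to 2.28), while Oas1a was called higher on 7 and 13 reads. Gbp2, an interferon gamma-induced GTPase, had 501 and 354 reads (ratio 0.791, 0.688 to 0.907). Mx1 had 0 reads in both libraries, and Ifit1 and Rsad2 had 0 reads in wild type and 6 and 4 in the library labelled Prep1-/-. Others below the RPKM filter had fewer reads there than in wild type, with 54 and 27 for Ifit2, 56 and 31 for Gbp3, 19 and 7 for Ifih1, 13 and 4 for Usp18 and 12 and 3 for Isg15.

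**Figure D4:**
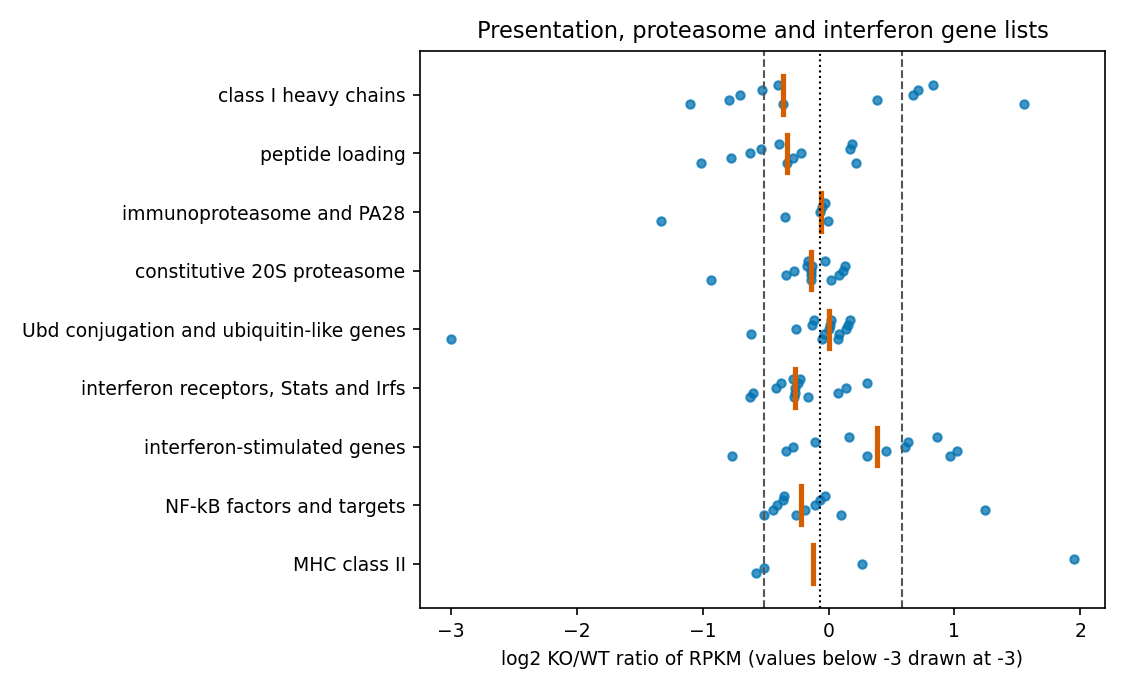
log2 KO/WT ratio of RPKM for the genes of 9 lists with RPKM above 1 in either library (blue points, 1 a gene), with the median of each list (orange bar), dashed lines at the thresholds of 0.7 and 1.5 and a dotted line at the median of all genes tested. The lists include the members: the median of the class I heavy chains is 0.776 as a ratio with H2-K1 and H2-D1 and 1.30 without them. The value of 1.30 is that of H2-Q7, on 11 and 13 reads. Ubd is drawn at the left edge.

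None of the 10 members had a Prep1 ChIP-seq peak within 1 kb of its start, against 8.18% of all annotated genes and 11.2% of those with RPKM above 1 in either library. The list held 3902 peaks, 200 of them on chromosome 17 and 17 in the MHC stretch. H2-K1 had the nearest peak, centred 19.7 kb from its start (chr17:34117217-34117902, with a deposited score of 23). The same peak was the nearest for Tapbp at 64.7 kb and for Tap1, Tap2, Psmb8 and Psmb9 at 207 to 223 kb. Ubd lay 165 kb from its nearest peak (chr17:37165349-37166356, score 66), B2m 38.7 kb, Psmb10 38.1 kb and H2-D1 127 kb from theirs. The median distance over the members was 146 kb, against 121 kb over 21446 annotated genes, and 1 of 10 members had a peak within 20 kb, against 18.8% of those genes. Over the annotated genes with RPKM above 1 in either library the median was 88.9 kb, and 23.6% had a peak within 20 kb. The order turned with peaks of score at least 100 only, where the median was 377 kb for the members, 1228 kb for all annotated genes and 1036 kb for those with RPKM above 1. There too a single peak (chr17:33946933-33948136, score 155) was the nearest for H2-K1, Tapbp, Tap1, Tap2, Psmb8 and Psmb9. The median of the members thus rests largely on that peak and the place of these genes.

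The Prep1 motif used here (TGANTGACA, searched on both strands) was in none of the 9 member promoters, against 1.95% of all promoters, and in 40.7% of the 750 peaks on chromosomes 2, 8 and 17. This search required the letters exactly, whereas the paper used a motif search program. The share of peaks here is thus not comparable with the share that the paper reports. The peak nearest to H2-K1 holds 1 match on the minus strand, shown with 10 bases on each side (chr17:34117572-34117600, inside the pseudogene Gm4152) because it is the closest match in a peak to any member.
Prep1 motif in the peak nearest to H2-K1: ctgctcaagaTGACTGACAggcgtttcag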

How the data were processed

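RNA was made into polyA libraries with a TruSeq kit and sequenced from 1 wild type and 1 Prep1-/- line. The authors assigned reads to Ensembl 63 genes (mm9) with RSEM and ran DESeq; versions are not given in the sources used here. For each gene the authors deposited its read count, without normalization, and its RPKM, which is made from the count plus 1 and listed as Inf for 85 genes, which were left out. The deposited peak list, made with BWA and MACS from 1 ChIP library against input, gives a score per peak. The input library was not analysed here.

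Members and gene lists were chosen with earlier results of these data known. The genes named were the members, Pknox1, list members, genes within 500 kb of Ubd with RPKM above 1, H2 genes, and genes with at least 50 wild type and 0 Prep1-/- reads; the run before Ubd, Snx25 and B230314M03Rik were added after their values were seen. The values of 1 list member are not reported here. With 1 library per genotype no count model was run, although the files hold counts. Intervals are exact binomial or Poisson at 95%; the limit for a count of 0 is 3 reads. Calls and intervals were tested on simulated data. Of the genes, 21446 were found in GENCODE M1 (NCBIM37). Promoters are from the RefSeq table of GRCm38.p6. Python 3.11.15, numpy 2.4.6, pandas 2.3.3, scipy 1.17.1, matplotlib 3.10.9 and edgeR 4.0.16 in R 4.3.3 (TMM factors only) were used.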

Additional observations from a re-analysis of the deposited data

How the results depend on the processing

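The number of members called lower was 5, and it was 3 with a pseudocount of 1 RPKM and 2 with thresholds of 0.5 and 2; it was 4 or 5 under the other alternatives, and 4 without Ubd. H2-K1 lost its call when ratios were taken from summed read counts (0.714), scaled to the median of expressed genes (0.726) or by TMM (0.728), with a pseudocount of 1 (0.707) and with each chromosome's median set to 1 (0.744), a setting chosen after seeing the data. Tap2 lost its call with a pseudocount of 1 (0.744). Ubd had a ratio of 0.0821 with a pseudocount of 1. Of 60 member ratios under other scalings or pseudocounts, 57 stayed inside the counting interval. No called member changed direction, and none was called higher, under any alternative run. The median log2 ratio of the members was -0.46 and ranged to -0.37. The number of genes of the MHC stretch called lower was 19, and it was 10 with a pseudocount of 1, 36 with no RPKM filter, 9 with RPKM above 5 and 7 with thresholds of 0.5 and 2; requiring at least 20 reads in the libraries together, also chosen after seeing the data, left 14. With peaks of score at least 100 only, the median distance of the members to a peak was 377 kb, against 1228 kb over annotated genes, the opposite order to that with all peaks (146 and 121 kb). In each setting a single peak was the nearest for H2-K1, Tapbp, Tap1, Tap2, Psmb8 and Psmb9, so their distances are not independent. Over all genes, 1899 were called lower, against 1207 with a pseudocount of 1, 886 with RPKM above 5, 4377 with no filter and 454 with thresholds of 0.5 and 2, and 985 were called higher, against 621, 357, 2848 and 484. Allowing 1 mismatch gave no Prep1 motif in the 9 member promoters, against 21.5% of all promoters. No paired analysis was possible because each genotype has 1 library. The depth of 48 to 137 reads behind Tap2, Psmb8 and Psmb9 leaves the widest intervals of the members with reads in both libraries.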
